A study of Mus musculus with 9 samples.

Results

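The axon guidance families described here are the ephrins and their Eph receptors, the semaphorins with their plexin and neuropilin receptors, the Slits with their Robo receptors, and the netrins with Dcc and the Unc5 receptors. Members were the protein-coding genes of the GENCODE M21 annotation (build GRCm38) whose symbols belong to these families. The rule itself uses symbols and gene type, and no expression value. The rule found 69 of the 35896 genes in the files: 14 Eph receptors, 8 ephrins, 20 semaphorins, 9 plexins, 2 neuropilins, 3 Slits, 4 Robos, 4 netrins and 5 netrin receptors. Of these, 58 were among the 14648 genes that passed edgeR's filter on low counts and were tested, and 11 were too low to be tested.

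These families were named for steering growing axons, but most are used wherever cells must sort, repel or form boundaries. Ephrins are anchored in the membrane of one cell and bind Eph receptor tyrosine kinases on its neighbour, with A-type ephrins held by a lipid anchor and B-type ephrins spanning the membrane. Semaphorins, which are secreted in class 3 and membrane-bound in classes 4 to 7, act through plexins, and most class 3 members need a neuropilin as co-receptor. Slits bind Robos, and netrins bind Dcc, which mediates attraction, or Unc5 receptors, which mediate repulsion. All of these receptors act on the actin cytoskeleton.

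Poly-A RNA was sequenced from E14, a single mouse embryonic stem cell line, in 9 libraries forming 3 groups of 3. The Control +LIF2i cells stayed in self-renewal medium with serum, the cytokine LIF, the MEK inhibitor PD0325901 (1 µM) and the glycogen synthase kinase-3β inhibitor CHIR99021 (1 µM). The Control -LIF2i cells differentiated spontaneously for 72 h in the same serum medium without these 3 additions. The CK666 -LIF2i cells were withdrawn for 72 h with 80 µM CK666, an inhibitor of the Arp2/3 complex that nucleates branched actin filaments, and the comparison with Control -LIF2i asks what that complex contributes to the transition. CK666 was dissolved in DMSO; whether control cultures had DMSO too is not given, so the drug and its solvent cannot be told apart. The study calls the replicates biological and paired but does not name separate cultures, so p-values measure the spread between these samples. Whole cultures were profiled: fewer cells of a type and less RNA per cell cannot be told apart.

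Library totals ranged from 16894327 to 22550952 estimated counts, and 3 counts, taken as the detection floor, corresponded to 0.133 to 0.178 CPM (the read count scaled to a common library size) on the raw library totals. Floors cover counting error only. CPM values of genes use library sizes scaled by TMM, on which 3 counts give slightly different values. The 3 libraries of replicate 1 stood apart from the other 6 on the second principal component, which held 23.3% of the variance, and counts of called members are given with and without them. The summed TPM, the deposited abundance scale that corrects for transcript length, of 8 embryonic stem cell markers was 5840 to 11000 in Control +LIF2i, 3150 to 4110 in Control -LIF2i and 3590 to 6020 in CK666 -LIF2i. That of 5 formative epiblast markers was 49.1 to 83.5, 402 to 1130 and 231 to 755 in the same order, most of it Dnmt3b after withdrawal. Within that list Pou2f3 was at 3.94 to 14.1 TPM in Control +LIF2i and under 1 TPM in the withdrawn libraries, and Fgf5 was at 26.5 to 40.5 TPM in Control -LIF2i and 1.72 to 9.36 TPM in CK666 -LIF2i, with no overlap. Guidance genes are also used by other cell types, whose marker lists were partly detected. Among their members above 1 TPM were Stmn2 (43.3 to 180 TPM over the libraries) and Tubb3 (8.80 to 176 TPM) of the neuronal list, Nes (10.2 to 42.6 TPM), Sox1 (up to 14.8 TPM) and Pax6 (up to 9.53 TPM) of the neural progenitor list, Dab2 (up to 22.1 TPM) and Gata4 (up to 6.99 TPM) of the primitive endoderm list, Tek (up to 4.73 TPM) of the endothelial list, and Krt8 (11.4 to 119 TPM), Tfap2c (1.28 to 55.2 TPM) and Eomes (up to 8.31 TPM) of the trophoblast list. In the same lists the endothelial Cdh5, Kdr and Tie1, the neuronal Dcx, the neural progenitor Olig2, the trophoblast Cdx2 and Elf5 and the primitive endoderm Gata6, Sox17, Sox7, Foxa2 and Afp stayed under 1 TPM in every library.

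Guidance transcripts were already present in self-renewing cells. A mean of at least 1 TPM was reached by 41 of the 69 members in Control +LIF2i, 47 in Control -LIF2i and 48 in CK666 -LIF2i. The summed level of all members was 525 ± 157 TPM (SD, n = 3) in Control +LIF2i, 601 ± 115 TPM in Control -LIF2i and 554 ± 135 TPM in CK666 -LIF2i, so the group ranges overlapped. Over the 9 libraries the highest mean level belonged to Plxna1 at 63.7 TPM, a receptor for class 3 and class 6 semaphorins. Plxnb2, a class 4 semaphorin receptor, followed at 45.5 TPM, then the netrin receptor Unc5b at 37.3 TPM, Epha2 at 33.0 TPM and Ephb4 at 32.7 TPM. By mean TPM the first member of 4 families differed between groups, but not in each library. Among Eph receptors it was Epha4 in Control +LIF2i (55.0 TPM), Epha1 in Control -LIF2i (47.8 TPM) and Ephb4 in CK666 -LIF2i (31.1 TPM). Epha4 led in replicate 1 of Control +LIF2i, while in replicates 2 and 3 Epha2 was higher, at 38.9 and 45.6 TPM beside 34.7 and 40.8 TPM, and in protein-coding transcripts Epha2 was higher in all 3. In Control -LIF2i Ephb4 was higher than Epha1 in replicate 2 (27.1 and 24.4 TPM) and Epha2 in replicate 3 (58.3 and 44.1 TPM). In CK666 -LIF2i Epha1 led in replicate 1, at 51.9 TPM beside 37.3 TPM for Ephb4, and in replicate 2 Ephb4 and Ephb3 were nearly level at 25.7 and 25.5 TPM. Among ephrins the first was Efna3 in Control +LIF2i (9.66 TPM), except in replicate 3, where Efna4 was higher, and Efnb2 in the withdrawn groups (20.4 and 23.2 TPM). In protein-coding transcripts Efna3 led the ephrins of Control +LIF2i in replicate 2 alone, with Efna2 first in replicate 1 and Efna4 in replicate 3. Among Slits it was Slit2 in Control +LIF2i (3.98 TPM), although Slit3 was higher in replicate 2 and, in protein-coding transcripts, in all 3 replicates, and it was Slit3 in the withdrawn groups (11.2 and 8.14 TPM). Among semaphorins it was Sema4b in Control +LIF2i (42.6 TPM), Sema4d in Control -LIF2i (19.0 TPM) and Sema4b in CK666 -LIF2i (20.9 TPM). Plxna1, Robo1, Unc5b, Ntn1 and Nrp2 led their families by group mean in all 3 groups, with Ntn3 above Ntn1 in replicate 2 of Control -LIF2i and Plxnb2 above Plxna1 in replicate 3 of CK666 -LIF2i.

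LIF2i withdrawal changed many of these genes in both directions. With edgeR's quasi-likelihood test, the replicate number as a block and a Benjamini-Hochberg adjusted p-value under 0.05, 22 of the 58 tested members rose and 15 fell, and 21 were not called. The called share was 63.8% of the tested members, beside 40.7% of all tested genes. It was 37.9% beside 21.1% for raised genes and 25.9% beside 19.7% for lowered genes. Of the 37 called members, 32 changed by at least 1 on the log2 scale. No such count is given here for all called genes, so it describes the members' sizes only. The median log2 fold change was 0.35 over the tested members and 0.01 over all tested genes. Without the replicate block 30 members were called, all among the 37, beside 24% of all genes; the 7 lost were Ephb4, Nrp2, Ntn1, Plxna1, Plxnc1, Plxnd1 and Sema3f. Without the 3 libraries of replicate 1, 40 members were called (44.8% of all genes), and with DESeq2 also 40 (43.1%). Other fits called fewer. With the effective-length offset 33 members and 5061 of 14648 genes were called, and Ntn1, Ntn4, Plxnc1, Sema3f and Sema6d were lost. Without replicate 2 there were 29 members and 3746 of 14828 genes, and without replicate 3 there were 26 members and 3099 of 14968 genes. Among the members named for their fold change, leaving out replicate 1 moved the log2 value to 5.23 for Epha1, 6.49 for Sema6a, 5.43 for Sema3c, -5.34 for Plxna4 and 2.67 for Plxnc1. Leaving out replicate 2 of Control +LIF2i alone moved it to 7.06 for Epha1 and -1.94 for Nrp2, and leaving out replicate 1 of that group to 5.17 and -3.35; without replicate 2 of all groups Sema6d was at 4.55. Beside this comparison, the summed level of 5 fibroblast markers, most of it Thy1 after withdrawal, was 6.18 to 13.4 TPM in Control +LIF2i and 24.6 to 32.3 TPM in Control -LIF2i. In that list Pdgfrb was lower after withdrawal in all 3 pairs. The sum of 5 neural progenitor markers was 16.3 to 23.6 and 39.0 to 55.0 TPM, most of it Nes, while Sox1 was lower after withdrawal in all 3 pairs. The sum of 5 neuronal markers, Stmn2 and Tubb3 for the most part, was 209 to 360 and 83.1 to 108 TPM, while Map2 (2.31 to 2.67 and 5.36 to 12.1 TPM) and Elavl3 (1.94 to 3.39 and 3.68 to 5.33 TPM) were higher after withdrawal with no overlap. The sum of 7 primitive endoderm markers was 5.12 to 8.95 and 9.80 to 30.9 TPM, with Dab2 at 0.901 to 4.99 and 6.31 to 22.1 TPM and Gata4 lower after withdrawal in replicates 2 and 3. The sum of 6 trophoblast markers overlapped between the groups, but Krt8 was at 11.4 to 43.3 and 48.1 to 119 TPM and Tfap2c at 40.6 to 55.2 and 1.28 to 3.44 TPM. Their part in the results was not tested.

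**Figure D1:**
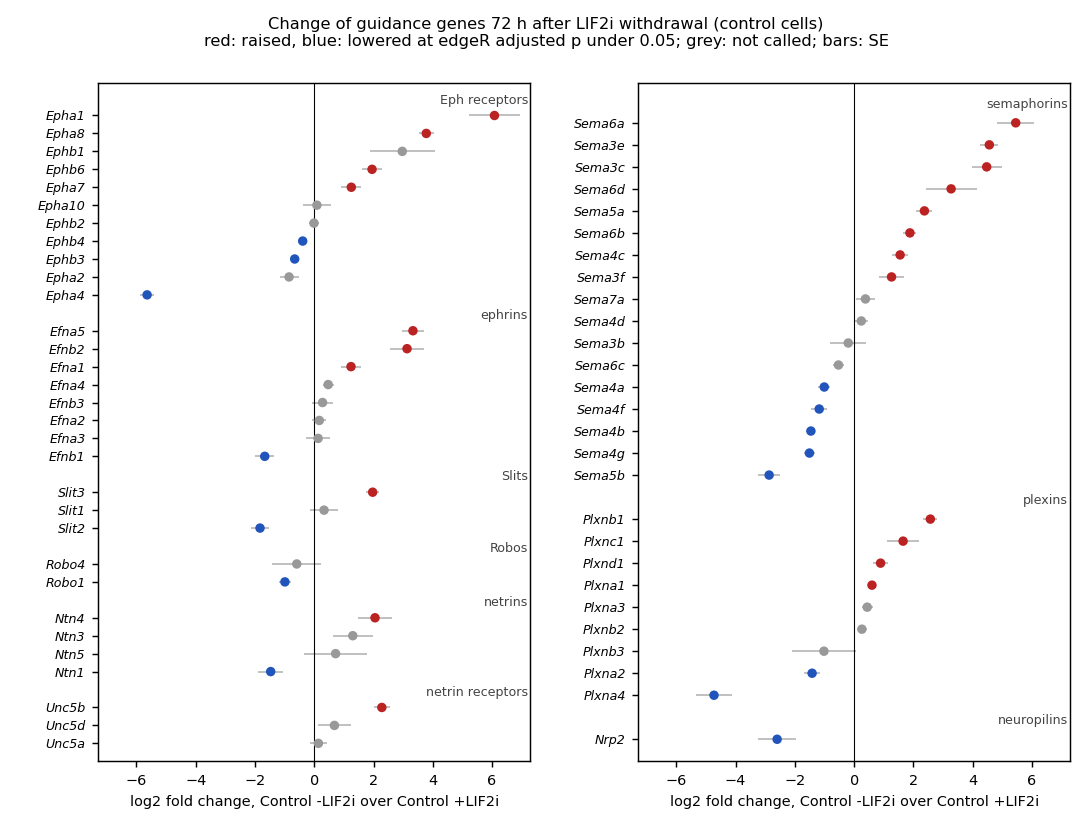
Log2 fold change of the 58 tested guidance genes between Control -LIF2i and Control +LIF2i, grouped by family, with the SE as bars; red points were raised, blue points lowered and grey points not called. Most families hold both red and blue points, from Epha1 at 6.08 to Epha4 at -5.64.

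Among the A-type Eph receptors, Epha4 fell and Epha1 rose. Epha4, a receptor that binds both A-type and B-type ephrins, stood at 249, 144 and 157 CPM in replicates 1, 2 and 3 of Control +LIF2i. It was at 4.20, 3.37 and 3.29 CPM in Control -LIF2i. Every self-renewing library was thus far above every withdrawn one, and the log2 fold change, -5.64 with an SE of 0.24 (edgeR adjusted p = 1.6e-06), was called in all 17 alternatives. Epha1, an A-type receptor typical of epithelia, did the opposite. It had 0, 39 and 32 counts in Control +LIF2i (0, 2.04 and 1.94 CPM) and 143, 54.9 and 99.7 CPM in Control -LIF2i. The groups did not overlap (log2 fold change 6.08, SE 0.86, edgeR adjusted p = 0.0015). This call was lost when replicate 2 or replicate 3 was left out, with an adjusted p of up to 0.071, while the fold change stayed between 5.17 and 7.06. Epha8, whose expression is otherwise best known from the midbrain, went from 1.03, 0.732 and 1.21 CPM to 18.9, 10.1 and 12.6 CPM (log2 fold change 3.78, SE 0.25, edgeR adjusted p = 9.6e-06). The promoter strands of these receptors, the 250 bases before the RefSeq start site on GRCm38.p6, are shown because they carry the largest changes among the Eph receptors and differ widely in CG content; CG dinucleotides are in capitals. Each start site coincides with a GENCODE gene start.
Epha4 (chr1:77515089-77515338, minus strand, 14 CG): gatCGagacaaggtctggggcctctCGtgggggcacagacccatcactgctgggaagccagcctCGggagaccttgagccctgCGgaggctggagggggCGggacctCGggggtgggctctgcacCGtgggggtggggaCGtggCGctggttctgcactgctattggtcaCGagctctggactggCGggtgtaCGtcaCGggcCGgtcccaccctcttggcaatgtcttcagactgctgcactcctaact
Epha1 (chr6:42373269-42373518, minus strand, 9 CG): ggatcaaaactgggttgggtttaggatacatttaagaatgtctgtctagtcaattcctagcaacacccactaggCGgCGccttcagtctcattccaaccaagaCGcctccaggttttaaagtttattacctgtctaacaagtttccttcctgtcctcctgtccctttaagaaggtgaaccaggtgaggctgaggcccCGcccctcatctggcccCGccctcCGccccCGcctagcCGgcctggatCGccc
Epha8 (chr4:136956817-136957066, minus strand, 46 CG): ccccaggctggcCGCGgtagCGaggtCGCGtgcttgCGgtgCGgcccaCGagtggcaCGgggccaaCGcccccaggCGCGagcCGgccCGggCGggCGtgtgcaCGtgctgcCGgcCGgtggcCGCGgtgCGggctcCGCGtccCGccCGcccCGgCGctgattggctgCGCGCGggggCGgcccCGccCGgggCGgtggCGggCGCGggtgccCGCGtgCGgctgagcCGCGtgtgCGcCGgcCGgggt

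Seen as shares of the summed TPM of the 9 EphA receptors, Epha4 held 44.9% to 55.1% in the Control +LIF2i libraries and 0.872% to 2.64% in the Control -LIF2i libraries. Epha1 held 0% to 1.03% and then 39.8% to 63.9%. Epha2, a receptor of A-type ephrins and the other abundant member, held 43.8% to 51.1% and then 24.6% to 52.5%. Its own level was 156, 116 and 126 CPM in Control +LIF2i and 53.1, 45.6 and 159 CPM in Control -LIF2i, where replicate 3 lay above all self-renewing libraries, and it was not called (log2 fold change -0.85, edgeR adjusted p = 0.061). Epha7 rose from 3.50 ± 1.40 to 8.19 ± 1.61 CPM (SD, n = 3). Among the 5 EphB receptors, Ephb6, whose kinase domain is inactive, rose from 3.05 ± 0.485 to 11.5 ± 1.46 CPM. Ephb3 fell by 0.66 and Ephb4 by 0.39 on the log2 scale, and Ephb2 showed -0.01. The Ephb3 call held in all 17 alternatives and the Ephb4 call in 9 of 17. Ephb1 had at most 4 counts in any Control +LIF2i library and was not called (edgeR adjusted p = 0.056).

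**Figure D2:**
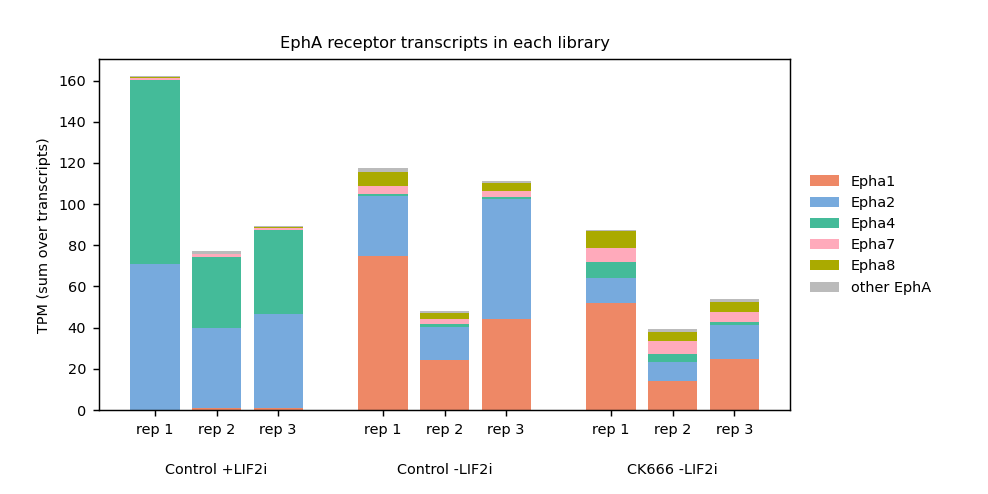
Stacked TPM of the EphA receptors in each of the 9 libraries, summed over the transcripts of each gene; Epha3, Epha5, Epha6 and Epha10 are drawn together as other EphA. The Epha4 segment fills 44.9% to 55.1% of the bar in Control +LIF2i and the Epha1 segment 39.8% to 63.9% in Control -LIF2i.

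Of the 8 ephrins, 3 rose and 1 fell, beside 21.1% and 19.7% of all tested genes. Efnb2, a membrane-spanning ligand known from vessel and somite boundaries, stood at 2.95, 10.6 and 7.35 CPM in Control +LIF2i and at 86.8, 46.9 and 60.6 CPM in Control -LIF2i (log2 fold change 3.13, SE 0.56, edgeR adjusted p = 0.0036). Its size rested on single self-renewing libraries: it was 2.49 without replicate 1 of Control +LIF2i and 3.82 without replicate 2. Efna5, a lipid-anchored ligand of several EphA receptors, rose from 0.541, 0.941 and 1.28 CPM to 11.5, 5.09 and 12.4 CPM (log2 fold change 3.33, SE 0.36, edgeR adjusted p = 1.3e-04; 2.72 with the effective-length offset). Neither gene's groups overlapped. Efna1, the high-affinity ligand of Epha2, rose by 1.24 on the log2 scale. Efnb1, the X-linked B-type ephrin, had 7.67, 8.10 and 6.07 CPM before and 2.51, 2.18 and 2.10 CPM after withdrawal (log2 fold change -1.67, SE 0.32, edgeR adjusted p = 0.0028). The B-type ligands therefore moved in opposite directions, while Efnb3 showed 0.28. Efna2, Efna3 and Efna4 had log2 fold changes of 0.17, 0.13 and 0.47 and were not called. Efna1, Efna3 and Efna4 lie side by side on chromosome 3, with gaps of 32.8 and 10.4 kb, and of these neighbours Efna1 was the called one.

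Semaphorins were the largest family, with 8 raised and 5 lowered among 17 tested members. By class, 3 of the 4 tested class 3 genes rose and none fell, 3 of 4 class 6 genes rose and none fell, and 4 of 6 class 4 genes fell while 1 rose. Beside this, 21.1% of all tested genes rose and 19.7% fell. Of the class 3 calls, that of Sema3f was lost without the block and without replicate 1 (edgeR adjusted p = 0.064 and 0.075). The classes were compared after the values were known and the difference was not tested. Sema3e, a secreted ligand that binds Plxnd1 without a neuropilin, had 1.47, 0.889 and 1.21 CPM in Control +LIF2i and 23.4, 26.9 and 32.6 CPM in Control -LIF2i (log2 fold change 4.56, SE 0.30, edgeR adjusted p = 9.0e-06). Sema3c, a secreted ligand with roles in the heart outflow tract, went from 1.97, 0.523 and 0.850 CPM to 19.2, 26.8 and 29.1 CPM (log2 fold change 4.47, SE 0.51, edgeR adjusted p = 2.0e-04). Sema6a, a membrane-spanning ligand of A-type plexins, went from 3.34, 0.523 and 0.486 CPM to 45.8, 36.6 and 54.1 CPM (log2 fold change 5.45, SE 0.63, edgeR adjusted p = 2.8e-04). In CPM the groups of these 3 genes did not overlap, and each call held in all 17 alternatives. The size for Sema3c depended on the scale: with the effective-length offset its log2 fold change was 3.26 (edgeR adjusted p = 0.018), and in TPM replicate 1 was at 3.41 before and 5.81 after withdrawal, beside 0.117 and 6.61 in replicate 2 and 0.346 and 7.74 in replicate 3. The 250 bases before the start of Sema3e, the one semaphorin here that was also called under CK666, are shown for that reason. With the 50 bases after the start they hold 11 CG dinucleotides, beside a median of 13 over the promoter windows of all protein-coding genes.
Sema3e (chr5:14025026-14025275, plus strand, 7 CG): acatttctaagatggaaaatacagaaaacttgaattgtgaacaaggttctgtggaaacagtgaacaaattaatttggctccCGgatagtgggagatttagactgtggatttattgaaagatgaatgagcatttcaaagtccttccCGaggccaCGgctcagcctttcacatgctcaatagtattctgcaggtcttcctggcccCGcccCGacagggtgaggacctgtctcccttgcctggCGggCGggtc

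Sema5a, Sema6b, Sema4c and Sema3f rose by 2.37, 1.88, 1.55 and 1.26 on the log2 scale, the last called in 7 of 17 alternatives. Sema6d also rose, but from 0, 3 and 1 counts in Control +LIF2i, under or at the floor, to 14, 13 and 16 counts. Among the lowered semaphorins, Sema4b had the highest level in self-renewing cells. It stood at 145, 76.4 and 98.6 CPM in Control +LIF2i and 45.9, 34.0 and 34.5 CPM in Control -LIF2i (log2 fold change -1.46, SE 0.15, edgeR adjusted p = 8.0e-05). Sema4g fell from 23.4 ± 4.61 to 8.31 ± 2.20 CPM, Sema4f from 11.7 ± 3.50 to 5.23 ± 1.62 CPM and Sema4a from 12.3 ± 0.691 to 6.14 ± 1.03 CPM (SD, n = 3). The fall of Sema4a is that of the gene sum: its protein-coding transcripts were at 0, 0.322 and 0.245 TPM in Control +LIF2i and 3.16, 0.334 and 0.773 TPM in Control -LIF2i. Sema5b, a membrane-bound inhibitor of axon growth, fell from 23.1, 39.2 and 34.7 CPM to 5.93, 6.07 and 2.32 CPM (log2 fold change -2.87, SE 0.36, edgeR adjusted p = 2.7e-04). Its paralog Sema5a thus moved the other way. Sema3b, Sema4d, Sema6c and Sema7a were not called, with log2 fold changes of -0.20, 0.24, -0.53 and 0.38. Without replicate 1 Sema3b went the other way, at 0.77 (edgeR adjusted p = 0.038). Sema6c (edgeR adjusted p = 0.052) was called in 5 of 17 alternatives.

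On the receptor side, 4 of the 9 plexins rose and 2 fell, beside 21.1% and 19.7% of all tested genes. Plxnb1, the receptor of Sema4d, showed 9.29, 15.9 and 17.1 CPM in Control +LIF2i and 81.6, 81.6 and 85.6 CPM in Control -LIF2i (log2 fold change 2.57, SE 0.24, edgeR adjusted p = 6.1e-05). Plxna1 rose from 286 ± 16.4 to 435 ± 40.0 CPM (log2 fold change 0.60), Plxnd1 from 9.49 ± 4.27 to 16.7 ± 2.20 CPM and Plxnc1 from 1.18 ± 0.867 to 3.61 ± 1.13 CPM (SD, n = 3). Plxnc1, the receptor of Sema7a, was called in 8 of 17 alternatives. Its log2 fold change of 1.65 was 0.42 with the effective-length offset (edgeR adjusted p = 0.60) and 2.67 without replicate 1, and its mean level was 1.14 TPM before and 1.22 TPM after withdrawal. Plxna4, a receptor for Sema6a and class 3 semaphorins, was detected mainly in self-renewing cells: 6.83, 4.60 and 2.61 CPM against 0.386, 0.0519 and 0.108 CPM after withdrawal, where the counts were 8, 1 and 2 (log2 fold change -4.73, SE 0.60, edgeR adjusted p = 2.9e-04). The size of this fold change rests on those few counts. Plxna2 fell by 1.42 on the log2 scale. The A-type plexins were thus split, with Plxna1 higher, Plxna2 and Plxna4 lower and Plxna3 not called (0.44, edgeR adjusted p = 0.072).

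Nrp2, the only neuropilin that passed the filter, stood at 14.4, 22.1 and 25.8 CPM in Control +LIF2i and at 8.59, 2.02 and 3.51 CPM in Control -LIF2i (log2 fold change -2.60, SE 0.64, edgeR adjusted p = 0.012). It was called in 10 of 17 alternatives, and without replicate 1 the log2 fold change was -3.12. Nrp1, the main co-receptor of Sema3a, had at most 8 counts in any library.

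Slits and netrins each held one gene that rose and one that fell. Slit3 went from 12.7, 9.57 and 8.02 CPM to 39.6, 38.4 and 40.3 CPM (log2 fold change 1.97, SE 0.22, edgeR adjusted p = 1.5e-04). Slit2 went from 12.1, 6.38 and 13.7 CPM to 2.89, 2.49 and 3.40 CPM (log2 fold change -1.83, SE 0.32, edgeR adjusted p = 0.0019). Neither pair of groups overlapped. Robo1, the one Robo above 1 TPM in any group mean, fell from 69.9 ± 6.96 to 35.7 ± 8.53 CPM (SD, n = 3). The netrin receptor Unc5b, which also mediates repulsion in vessels, rose from 31.7, 52.8 and 35.6 CPM to 240, 171 and 180 CPM (log2 fold change 2.28, SE 0.28, edgeR adjusted p = 3.6e-04). Its ligand Ntn1 fell from 36.1, 7.48 and 13.1 CPM to 10.7, 3.89 and 4.37 CPM. These ranges overlapped, although each same-numbered pair fell, and Ntn1 was called in 9 of 17 alternatives. Ntn4, a laminin-related netrin, rose from 0.354 ± 0.192 to 1.44 ± 0.462 CPM, a low level throughout. It was called in 10 of 17 alternatives, and not with the effective-length offset (edgeR adjusted p = 0.051).

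A further 11 members did not pass the filter, and no statement on change is made for them: Epha3, Epha5, Epha6, Robo2, Robo3, Dcc, Unc5c, Nrp1, Sema3a, Sema3d and Sema3g. Their highest count in any library was 27 and their highest level 1.28 CPM, both for Sema3a in replicate 1 of CK666 -LIF2i. Of these, Sema3d and Sema3a precede Sema3e on chromosome 5, with gaps of 536 and 423 kb. Robo3 and Robo4, both low, lie on opposite strands with 0.554 kb between their ends.

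Under CK666, 2 members were called against Control -LIF2i, Epha4 upwards and Sema3e downwards, and 56 were not. This was 3.45% of the tested members, beside 2.05% of all tested genes. In each direction 1.72% of members were called, beside 1.15% of genes raised and 0.894% of genes lowered. The median log2 fold change was 0.11 over the members and 0.02 over all tested genes. Beside this comparison, the summed fibroblast markers were at 24.6 to 32.3 TPM in Control -LIF2i and 15.2 to 23.7 TPM in CK666 -LIF2i. The neural progenitor markers were at 39.0 to 55.0 and 19.7 to 37.3 TPM, where Nes was lower under CK666 in all 3 pairs, Sox1 higher in all 3 and Pax6 higher in replicates 2 and 3. The endothelial markers were at 3.60 to 5.28 and 1.65 to 3.00 TPM. Within the endothelial list Tek was at 1.81 to 4.34 and 0.819 to 1.57 TPM and Flt1 at 0.655 to 1.97 and 0.526 to 0.834 TPM, while Cdh5, Kdr and Tie1 were under 1 TPM. Further single markers differed with no overlap: Eomes (3.07 to 5.93 and 0.954 to 2.60 TPM) and Gsc (0.767 to 1.41 and 0.213 to 0.589 TPM) were lower under CK666, as were Fgf5, Hes5, T, Thy1 and Col1a2. Tfap2c (1.28 to 3.44 and 3.78 to 7.24 TPM) and the stem cell markers Esrrb (at most 15.1 and at least 21.6 TPM) and Tfcp2l1 (2.11 to 2.94 and 4.22 to 10.6 TPM) were higher. The part of these markers in the results was not tested.

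Epha4 stood at 4.20, 3.37 and 3.29 CPM in Control -LIF2i and at 16.7, 14.2 and 7.15 CPM in CK666 -LIF2i (log2 fold change 1.77, SE 0.22, edgeR adjusted p = 0.014). Each CK666 library was above every control library, with replicate 3 the lowest of the treated ones. All of them remained far below the lowest Control +LIF2i value of 144 CPM. Sema3e stood at 23.4, 26.9 and 32.6 CPM in Control -LIF2i and at 15.6, 7.47 and 12 CPM in CK666 -LIF2i (log2 fold change -1.30, SE 0.25, edgeR adjusted p = 0.037). All 3 treated libraries were below the 3 controls and above every Control +LIF2i library. Across alternatives the call held in 11 of 17 for Epha4 and in 8 of 17 for Sema3e, with fold changes of 1.53 to 2.03 and of -1.66 to -1.04. Without the replicate block neither was called (edgeR adjusted p = 0.27 and 0.33). In that fit 0 members and 0% of all genes were called with edgeR, beside 9 members and 1251 genes at an unadjusted p under 0.05.

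**Figure D3:**
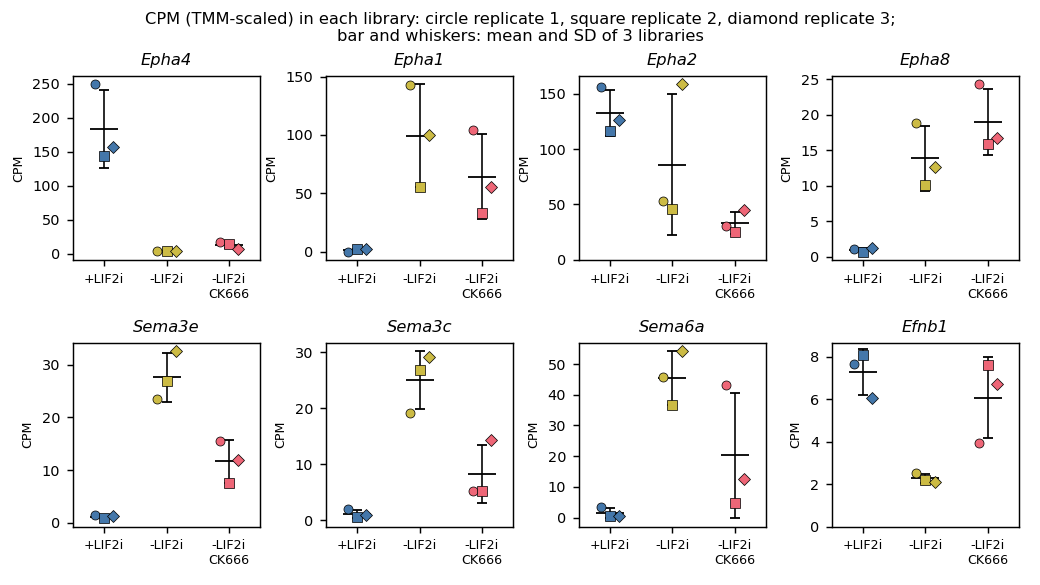
CPM of 8 guidance genes in each library, with 1 panel per gene, symbols for the replicate number, and the mean and SD of 3 libraries as bar and whiskers. Epha4 is at 144 to 249 CPM in Control +LIF2i and at most 16.7 CPM in the others, and under CK666 every Sema3e and Sema3c value lies between those of the control groups.

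Other members differed between these groups without being called. Efnb1 was at 2.51, 2.18 and 2.10 CPM in Control -LIF2i and at 3.93, 7.59 and 6.70 CPM in CK666 -LIF2i, with no overlap (log2 fold change 1.39, SE 0.32, edgeR adjusted p = 0.057). Its receptor Ephb3 was at 49.1, 42.4 and 43.4 CPM and at 64.8, 77.2 and 64.6 CPM, again with no overlap (0.62, SE 0.14, edgeR adjusted p = 0.056). Sema3c was at 19.2, 26.8 and 29.1 CPM and at 5.26, 5.27 and 14.3 CPM (-1.71, SE 0.43, edgeR adjusted p = 0.074). Epha2 was at 53.1, 45.6 and 159 CPM and at 30.2, 25.2 and 44.7 CPM, where the groups were narrowly separate but replicate 3 carried the highest value of each (-1.23, SE 0.32, edgeR adjusted p = 0.084). In TPM the groups of Epha2 overlapped, with replicate 3 of CK666 -LIF2i at 16.4 TPM and replicate 2 of Control -LIF2i at 16.1 TPM. DESeq2 with the block called these 4 genes along with Epha4 and Sema3e, 6 of the 52 members to which it gave an adjusted p-value (11.5%), beside 8.44% of all genes.

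Replicate 1 differed from the others for several members. Sema6a was at 45.8, 36.6 and 54.1 CPM in Control -LIF2i and at 43.2, 4.76 and 12.7 CPM in CK666 -LIF2i: replicates 2 and 3 were lower and replicate 1 was near its control. It was not called (log2 fold change -1.77, SE 0.51, edgeR adjusted p = 0.11), but without the libraries of replicate 1 the fold change was -2.49 with an edgeR adjusted p of 9.1e-04. In that fit 12 of 58 members were called (20.7%), beside 12.3% of all genes: Efnb1, Epha4, Ephb3, Plxna2, Sema4b and Sema4f raised, and Epha1, Plxna1, Plxnb1, Sema3c, Sema3e and Sema6a lowered. Without replicate 2, without replicate 3, without replicate 2 or 3 of Control -LIF2i, or without replicate 2 of CK666 -LIF2i, no member was called with edgeR, with 8 to 11 members at an unadjusted p under 0.05. In these fits 0 to 8 of all genes were called, and 1302 to 1856 had an unadjusted p under 0.05.

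**Figure D4:**
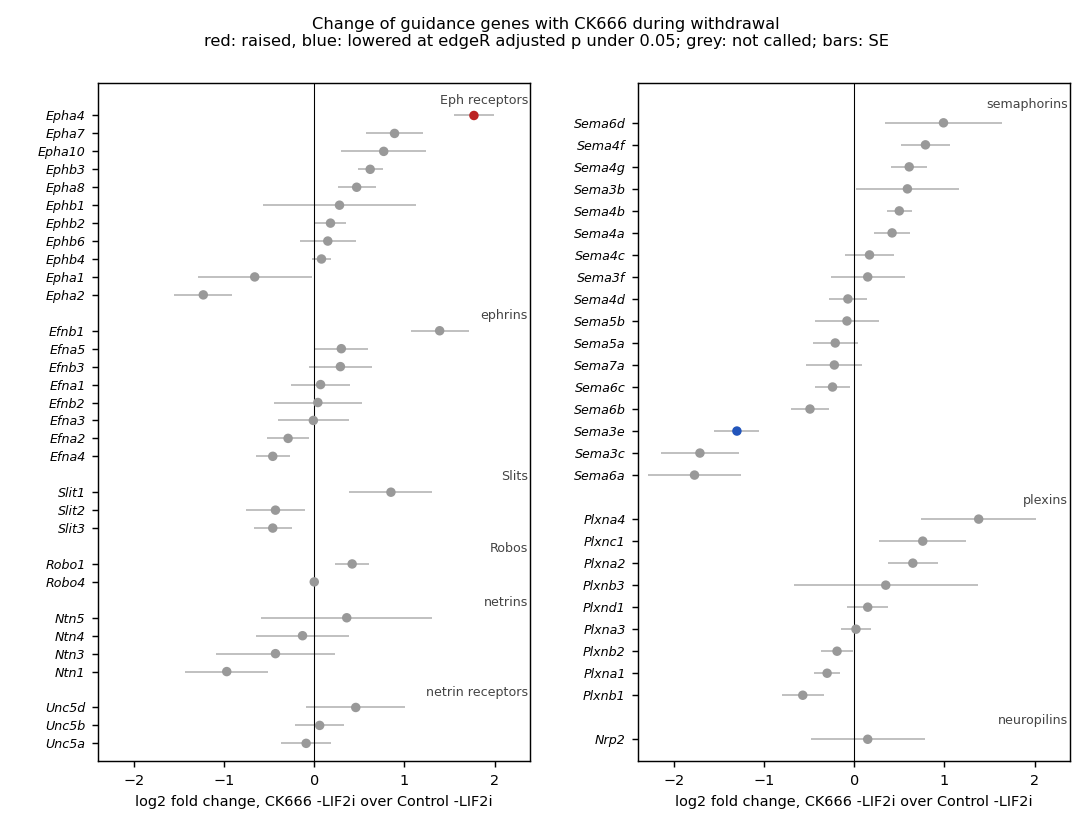
Log2 fold change of the 58 tested guidance genes between CK666 -LIF2i and Control -LIF2i, by family, with the SE as bars; Epha4 (red, 1.77) and Sema3e (blue, -1.30) were called and the grey points were not. Sema6a at -1.77 and Sema3c at -1.71 lie farther from 0 than Sema3e but have wider bars. The bar of Robo4, whose SE was 5.57, was left out because of its size.

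Against self-renewing cells, CK666 -LIF2i cells had 22 members raised and 13 lowered, 60.3% of those tested beside 36.9% of all genes. The raised share was 37.9% beside 19.8%, and the lowered share 22.4% beside 17.1%. Without the block 29 members were called (20.2% of all genes), all among the 35; Nrp2, Ntn4, Plxna2, Plxnd1, Robo1 and Sema4a were lost. Without replicate 1, 32 were called (41.6% of all genes), and with DESeq2 35 (40.2%). Other fits called fewer: 26 members and 4408 of 14648 genes with the effective-length offset. Without replicate 2 there were 26 members and 3336 of 14828 genes, and without replicate 3 there were 23 members and 2413 of 14968 genes. The summed fibroblast markers were at 6.18 to 13.4 TPM in Control +LIF2i and 15.2 to 23.7 TPM in CK666 -LIF2i, the primitive endoderm markers at 5.12 to 8.95 and 12.2 to 23.2 TPM, the neuronal markers at 209 to 360 and 71.7 to 99.7 TPM, and the endothelial markers at 3.92 to 6.43 and 1.65 to 3.00 TPM. Against their lists' sums, Map2 and Elavl3 were higher and Pdgfrb lower in CK666 -LIF2i in all 3 pairs. Tfap2c of the trophoblast list was at 40.6 to 55.2 and 3.78 to 7.24 TPM. Their part in the results was not tested. This comparison shares a group with each of the others, so the values are set side by side with no overlap counted. For Epha4 the log2 fold change against Control +LIF2i was -5.64 in control cells and -3.88 in CK666 cells. For Epha1 it was 6.08 and 5.43, for Epha8 3.78 and 4.25, and for Epha7 1.25 and 2.14. For Sema6a it was 5.45 and 3.69, for Sema3e 4.56 and 3.26, and for Sema3c 4.47 and 2.76. Without replicate 1 the value in CK666 cells was 4.41 for Epha1, 3.76 for Sema3c, 2.35 for Efnb2, 2.25 for Ephb1, -3.58 for Nrp2 and 3.26 for Plxnc1. Without replicate 2 it was 6.39 for Epha1, 3.85 for Efnb2, -1.75 for Nrp2 and 5.59 for Sema6d, and without replicate 3 it was 5.13 for Ephb1 and 2.12 for Sema3c. Sema6a was at 3.00 without replicate 1 of CK666 -LIF2i. With the effective-length offset 9 of the 35 members were not called in CK666 cells: Ephb1, Ntn1, Ntn4, Plxna2, Plxnc1, Sema3c, Sema3f, Sema4a and Sema6d. The edgeR adjusted p was 0.22 for Sema3c, 0.55 for Plxnc1 and 0.064 for Sema6d. For Efnb1 the log2 fold change was -1.67 in control cells and -0.28 in CK666 cells, where it was not called (edgeR adjusted p = 0.51). Ephb3 was likewise at -0.66 and then at -0.04 (edgeR adjusted p = 0.84).

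Epha2 was called in this comparison and, by the same fit, not for withdrawal alone. For withdrawal it was called in 4 of 17 alternatives, among them DESeq2 with the block (DESeq2 adjusted p = 0.013). In CK666 cells it fell from 133 ± 21.2 CPM in Control +LIF2i to 33.4 ± 10.2 CPM in CK666 -LIF2i (SD, n = 3; log2 fold change -2.08, SE 0.32, edgeR adjusted p = 0.0014), and this was called in all 17 alternatives. Ntn1 was at 2.04, 2.77 and 3.41 CPM in CK666 -LIF2i and fell against Control +LIF2i (log2 fold change -2.45, SE 0.47, edgeR adjusted p = 0.0033). Without replicate 1 this was -1.69, and with the effective-length offset -1.20 and not called (edgeR adjusted p = 0.067). Against Control -LIF2i Ntn1 was not called (log2 fold change -0.97, edgeR adjusted p = 0.28). With the effective-length offset that value was -0.05 (edgeR adjusted p = 0.97), and in TPM Ntn1 was higher under CK666 in replicates 2 and 3. Efnb2, Efna5 and Unc5b, raised against Control +LIF2i, had log2 fold changes against Control -LIF2i of 0.04 (SE 0.49), 0.30 (SE 0.30) and 0.06 (SE 0.27) and were not called there. Ephb1 was called as raised (edgeR adjusted p = 0.041) from 0, 1 and 4 counts in Control +LIF2i to 35, 12 and 13 counts, in 7 of 17 alternatives. Plxna4 fell by 3.35, Sema5b by 2.95, Slit2 by 2.26 (by 1.67 with the effective-length offset) and Nrp2 by 2.45 on the log2 scale. Nrp2 was at 14.4, 22.1 and 25.8 CPM in Control +LIF2i and at 14, 1.64 and 2.4 CPM in CK666 -LIF2i. Its replicate 1 pair was thus nearly level, and it was called in 9 of 17 alternatives.

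The transcripts behind these sums differed in kind. Epha8 and Plxna4 came from 1 transcript with all of their TPM, and Epha1-201, a protein-coding transcript, held 95.6% to 100% of Epha1 wherever the gene was above 0. Epha4 was divided between coding transcripts and transcripts annotated for nonsense-mediated decay, and protein-coding ones held 63.3% of its mean TPM. In coding transcripts alone Epha4 was at 34.4, 29.2 and 39.1 TPM in Control +LIF2i, 0.154, 0.945 and 0.182 TPM in Control -LIF2i and 6.86, 3.75 and 0.129 TPM in CK666 -LIF2i. On that scale the CK666 library of replicate 3 was below its control, so the order of the groups under CK666 holds for the gene sum and not for coding transcripts in every replicate. For Sema3e the coding transcript was at 4.05, 2.70 and 4.22 TPM in Control -LIF2i and at 2.34, 0.904 and 1.15 TPM in CK666 -LIF2i, with the rest in a retained-intron transcript. Of the 47 members with a mean of at least 1 TPM, 5 had under 50% of it in protein-coding transcripts: Sema4a (9.83%), Sema5a (22.4%), Slit2 (34.2%), Plxna3 (49.1%) and Sema6c (49.6%). For Sema4a the sum therefore described mostly retained-intron transcripts, and its coding transcripts did not follow it. In CK666 -LIF2i the coding TPM of Sema3c was below that of Control +LIF2i in replicate 1 and above it in replicates 2 and 3. The split between transcripts is an estimate made from shared reads.

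Exons of some members overlap those of an antisense gene, and the sources used here do not give whether counting used strand. The overlapping part of the exonic bases was 23.4% for Ntn5, 14.1% for Efna3, 10.7% for Plxna1, 10.5% for Efna4 and 7.27% for Sema4c. It was 6.01% for Epha1 (with Zyx), 4.46% for Ntn3 (with Tbc1d24 on the same strand as well as an antisense gene) and 2.68% for Plxnb1. Reads from such stretches cannot be told apart by gene.

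RefSeq promoters of 300 bases, 250 before and 50 after the start, were found for 59 of the 69 members, 75 promoters in all, beside 21263 of protein-coding genes. The members' promoters held a median of 19 CG dinucleotides and those of all protein-coding genes 13. The E-box CACGTG was in 5 of the 75 (6.67%, beside 7.84% of all), those of Epha8, Robo2, Sema3e, Sema4b and Sema6d, with the Epha8 match inside the printed run and the Sema3e match only after the start. The AP-1 motif TGACTCA was in 2 (2.67%, beside 4.66%) and the CArG box of SRF in 2 (2.67%, beside 1.52%). Both strands were searched, and the shares describe letters only.

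Genes that work with these families were counted from lists of other guidance molecules and of signalling proteins. Of 21 partners, 18 were tested, and on withdrawal 8 rose and 1 fell, beside 40.7% of all tested genes called. Rgmb and Dscam, among the 8, were not called without the block (edgeR adjusted p = 0.10 and 0.085). L1cam, an adhesion molecule in the Sema3a receptor complex, rose from 0.782 ± 0.204 to 11.1 ± 3.00 CPM (SD, n = 3; log2 fold change 3.81). Nrcam, a related adhesion molecule that pairs with Nrp2, rose by 2.84, and Met, a kinase that associates with B-type plexins, by 2.06 on the log2 scale. Gpc1, a heparan sulphate carrier that binds Slits, rose by 1.95, and Adam10, a protease that cleaves ephrins, fell by 0.74. Under CK666 none of the 18 was called against Control -LIF2i in the edgeR fit, beside 2.05% of all genes. In that fit 1 of them had an unadjusted p under 0.05, beside 2890 of the 14648 genes. DESeq2 called 1, beside 8.44% of all genes. Their median log2 fold change was -0.23, beside 0.02 over all genes. Without replicate 1, Neo1 and Cntn2 were called (edgeR adjusted p = 0.0032 and 0.04), beside 12.3% of all genes.

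Of 40 signalling proteins inside the cell, 39 were tested, and on withdrawal 13 rose and 13 fell, beside the same 40.7%, with a median log2 fold change of 0.05. Of these calls, Farp2, Rras, Srgap3, Limk1 and Limk2 were lost without the block. The collapsin response mediators Crmp1 and Dpysl5, which act downstream of semaphorins, rose by 2.08 and 1.99 on the log2 scale. Sh2d3c, an adaptor that binds Eph receptors, rose by 2.75 and Trio, an exchange factor downstream of netrin receptors, by 1.98. Ablim1, an actin-binding protein linked to netrin signalling, fell by 2.72, Tiam1, an exchange factor used by Eph receptors, by 2.07 and Mical1, an actin-oxidising enzyme downstream of plexins, by 1.43. Under CK666 none of the 39 was called in the edgeR fit, beside 2.05% of all genes. In that fit 9 of them had an unadjusted p under 0.05, beside 2890 of the 14648 genes. DESeq2 called 4, beside 8.44% of all genes. Their median log2 fold change was 0.12, beside 0.02 over all genes. Without replicate 1, Srgap3, Tiam1, Dpysl5 and Mical1 were called (edgeR adjusted p = 0.0081, 0.016, 0.036 and 0.043), beside the same 12.3%. Against Control +LIF2i, CK666 cells had 6 partners raised and none lowered, and 14 signalling proteins raised and 11 lowered, beside 36.9% of all tested genes called. Without the block Rgmb and Erbb2 were lost among the partners, and Nck2, Vav2, Arhgef12, Farp2, Abl1, Abl2, Enah, Mical3, Limk2 and Ptk2 among the signalling proteins.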

How the data were processed

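Per the file headers, the authors deposited 1 table per library with the estimated counts, effective lengths and TPM of 119414 Ensembl transcripts. Per the submitters' processing notes, cutadapt 1.8.1, FastQC, kallisto and sleuth were used; the notes name mm10 and GRCh38 with no role, and the transcript release is not given in the sources used here. The estimated counts deposited by the authors are not normalised, and the TPM deposited by the authors are scaled by effective length and to a fixed sum per library. GENCODE M21 gave a gene for 116640 transcripts (97.7%); the other 2774 held 0.895% to 1.08% of counts and were left out.

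Counts were summed per gene, rounded and tested with edgeR 4.0.16 (R 4.3.3): TMM scaling, filterByExpr, robust quasi-likelihood fit of all 9 libraries with the replicate number as block, 4 residual degrees of freedom, Benjamini-Hochberg adjustment over 14648 genes. The study's design text gives the pairing; same-numbered libraries deviated together from their group means in every pair (r from 0.30 to 0.65), and different numbers had an r of 0.21 to 0.29 between replicates 2 and 3 and below 0 in every pair with replicate 1. Replicates of a group differed by a chi-square per gene of 17.2 to 218, above counting noise, so each counted as 1 sample. CPM are TMM-scaled, mean ± SD. Alternatives were no block, DESeq2 1.42.0 or its size factors, no filter, an effective-length offset, and leaving out libraries. The fits were also run on simulated counts, and no result given here rests on that run.

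The members and lists were chosen with earlier results of these data known. Named are, per comparison, up to 12 called members in each direction with the largest fold change, the highest member of each family and receptor or ligand counterparts; members named beyond these were chosen after their values were seen.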

Additional observations from a re-analysis of the deposited data

How the results depend on the processing

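Each comparison was refitted in 17 alternatives, and no called member named for a comparison changed direction in any of them. Without the replicate block 3509 genes were called for withdrawal (5967 with it), 0 for CK666 (300 with it) and 2966 for CK666 against self-renewal (5408 with it), and the CK666 members called were 0 raised and 0 lowered. For CK666, DESeq2 with the block called 1140 genes with 3 members raised and 3 lowered, no filter on low counts gave 565 genes with 3 members raised, and the effective-length offset 147 genes with 0 members lowered. With libraries or replicate numbers left out, the genes called ranged from 3099 to 6588 for withdrawal, from 0 to 1811 for CK666 and from 2413 to 6129 for CK666 against self-renewal. The members called under CK666 ranged from 0 to 6 raised and from 0 to 6 lowered; the highest values came without replicate 1, the values of 0 without replicate 2 or 3. The members lowered against self-renewal ranged from 7 to 12, lowest without replicate 3 or without replicate 3 of Control +LIF2i. Fewer samples entered these fits; beyond that, the cause was not tested. Counting protein-coding transcripts alone, 39, 42 and 43 members reached 1 TPM in place of 41, 47 and 48. Depth limits the 11 untested members, which had at most 27 counts.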
